A study of Caenorhabditis elegans with 12 samples.

Results

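The genes described here are the numbered col genes of Caenorhabditis elegans, all rows of the deposited count tables whose name is col- followed by a number. There were 153 such genes among 45410 rows. Most col genes encode cuticle collagens, small collagens that epidermal cells secrete and that are cross-linked into the cuticle, the exoskeleton of the worm. A new cuticle is made before hatching and at each larval moult, and sets of collagen genes are transcribed in successive waves during its synthesis. The family is large and its members resemble each other, so reads can be shared or lost between near-identical members. How the authors treated reads that map to several places is not given in the sources used here, and values of single genes carry that uncertainty.

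RNA was sequenced from mid-embryos of 4 groups of 3 libraries each, grown at 20 °C. Eggs released from young adults by bleaching were kept for 4 h, when most embryos were near the comma stage, at the start of body elongation. set-2 encodes the SET1-type methyltransferase of histone H3 lysine 4. In experiment 1, set-2(tm1630) embryos, which carry a deletion at the 5′ end of the gene that removes its start codon, were set against wild-type N2 embryos. In experiment 2, set-2(zr2012) embryos, which carry a genome-edited amino acid substitution in the SET domain, were set against their own N2 embryos. Each strain is 1 line, and the replicates were separate preparations with the mutant and N2 handled in parallel. The comparisons ask how loss of, or a point change in, this enzyme affects transcript levels in the embryo.

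Libraries held between 14651380 and 53080992 counted reads. The set-2 row did not check the labels: it had 116, 12 and 97 reads in libraries labelled set-2(tm1630) and 1, 11 and 44 in N2 of experiment 1, and 12, 13 and 10 reads in libraries labelled set-2(zr2012) and 9, 13 and 17 in N2 of experiment 2. Reads from outside the tm1630 deletion count on the same row, and the zr2012 substitution need not change them. A read count of 0 could not be taken as absence. Genes that every cell uses, act-1, act-4, tba-1 and rpl-1, were also listed at 0 in all 12 libraries, as were 1710 of 17069 protein-coding symbols (10.02%). These 4 genes were chosen for this check after their values were seen, and the cause was not tested. Among the wild-type libraries, N2 replicate 3 of experiment 2 and N2 replicate 1 of experiment 1 stood apart from the others in their col genes, and the named members whose change moved most without them are given both ways.

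The col genes as a whole took fewer reads in both mutants than in N2, with groups that did not overlap in experiment 1 only. In set-2(tm1630) embryos the 153 genes took 3238, 3622 and 3476 RPM (reads scaled to equal library totals), against 9599, 7060 and 5809 in N2. The means were 3446 ± 194 and 7490 ± 1931 (SD, n = 3 each), so the mutant stood at 46.01% of N2 and the groups did not overlap. An exact two-sided permutation test gave p = 0.10 (n = 3 each), the smallest p that 3 against 3 allows. Without the 10 genes with the most reads, the others took 546, 741 and 583 RPM in set-2(tm1630) and 3737, 1325 and 1556 RPM in N2. The means were 623 ± 103 and 2206 ± 1331 RPM (SD, n = 3 each), so the mutant stood at 28.3% of N2, also with no overlap. That percentage leans on N2 replicate 1, which lay far above the other N2 libraries. In set-2(zr2012) embryos the genes took 13666, 10857 and 14038 RPM, against 20561, 20532 and 7722 in N2. The means of 12854 ± 1739 and 16272 ± 7405 (SD, n = 3 each) overlapped, with an exact two-sided permutation p of 0.40 (n = 3 each). In bulk embryos, fewer epidermal cells and less collagen RNA in each of them cannot be told apart.

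Within each of the 4 groups, the libraries with fewer col reads had more reads of early embryo genes, a list of 33 maternal and early zygotic genes of the first cleavages. The summed level of that list was 1813, 1410 and 1649 CPM (counts scaled to equal library totals after normalisation for composition) in set-2(tm1630), against 115, 217 and 300.2 CPM in N2 of experiment 1. It was 304, 312 and 265 CPM in set-2(zr2012), against 239, 252 and 959 CPM in N2 of experiment 2. N2 replicate 3 of experiment 2 thus had the fewest col reads of its experiment and the highest early embryo sum. N2 replicate 1 of experiment 1 had the most col reads and the lowest early embryo sum of its experiment. Whether the libraries differ in stage, and the part of this in the changes below, was not tested. The mean of N2 without replicate 1 was 6435 ± 884 RPM in experiment 1, and 20547 ± 20.5 without replicate 3 in experiment 2 (SD, n = 2 each).

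**Figure D1:**
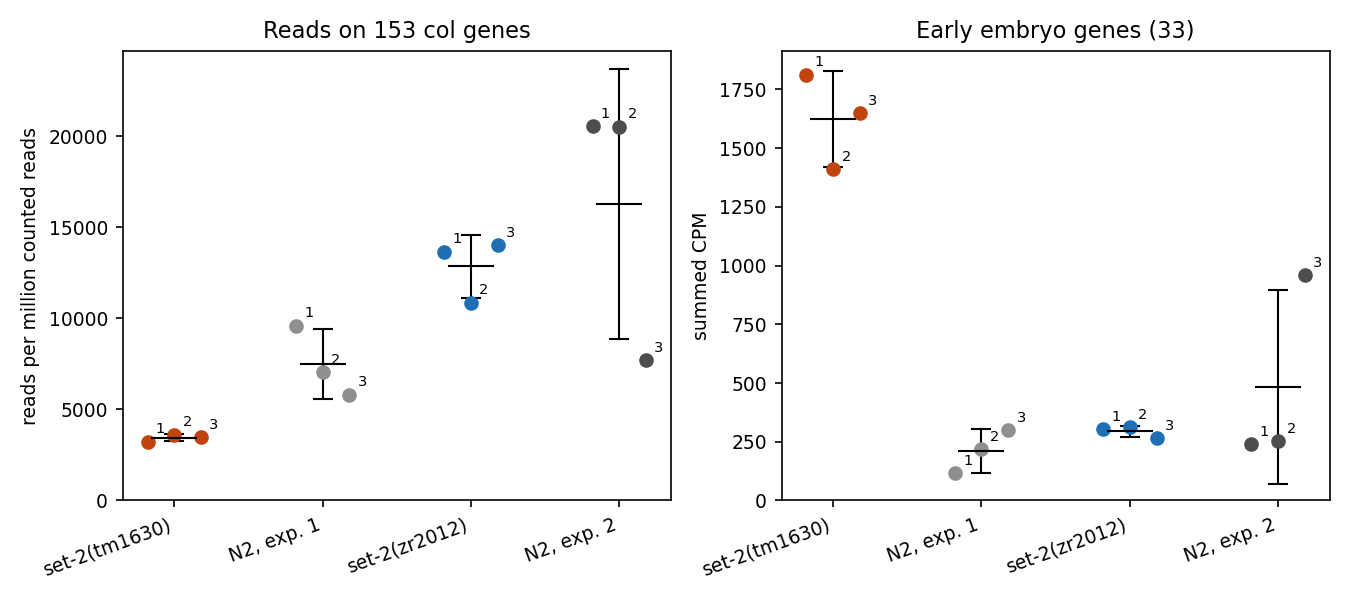
RPM of the 153 col genes (left) and the summed CPM of 33 early embryo genes (right), by group. Points are libraries with their replicate number, and bars are the mean ± SD of 3. The set-2(tm1630) libraries sit between 3238 and 3622 on the left, below all N2 libraries, and between 1410 and 1813 on the right, above all others, and N2 replicate 3 of experiment 2 stands apart from its group in both.

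A few genes made up much of the col transcript in every group. Of all col reads in the 12 libraries, col-165 took 22.1%, col-74 took 19.1% and col-121 took 6.55%. These are shares of reads and not levels per length, since no gene lengths of the files' annotation were used here. By CPM over the N2 libraries the next were col-107, col-65 and col-97. col-165 had 750, 779 and 787 CPM in set-2(tm1630) and 1632, 2001 and 738 CPM in N2 of experiment 1. It had 3266, 2812 and 3359.7 CPM in set-2(zr2012) and 4330.4, 4429 and 1885 CPM in N2 of experiment 2. The groups overlapped in both experiments, and neither log2 difference, -0.92 ± 0.45 (SE) and -0.17 ± 0.32, passed edgeR's quasi-likelihood test (adjusted p = 0.15 and 0.73).

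col-74 followed col-165 closely, with 561, 474 and 589 CPM in set-2(tm1630) against 1375, 1410.3 and 663 CPM in N2, and 2899, 2364 and 3067 CPM in set-2(zr2012) against 4096, 4103 and 1575 CPM in N2. col-121 went the other way in experiment 2. It had 674, 822 and 746 CPM in set-2(zr2012) and 283, 272 and 722 CPM in N2, where replicate 3 lay at the mutant level (log2 fold change 0.81 ± 0.39, SE; adjusted p = 0.21). Of all col reads of N2 in experiment 2, col-121 took 1.47% and 1.40% in replicates 1 and 2 and 9.18% in replicate 3. The share of col-165 moved less, between 22.5% and 23.98% in those libraries. Between the experiments, N2 levels of col-65 also stood apart, at 155, 146 and 84.8 CPM in experiment 1 and 1110.3, 1144 and 337 CPM in experiment 2.

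At the other end, 11 members were listed at 0 in all 12 libraries: col-3, col-14, col-72, col-86, col-117, col-126, col-127, col-166, col-172, col-181 and col-184. Because genes in use everywhere were also at 0, these 11 are not called silent. A count of 0 allows up to 3 reads, which is 0.0565 to 0.205 RPM across these libraries, for counting error only. Members with no more than 3 reads in every N2 library numbered 16, the other 5 being col-19, col-20, col-171, col-178 and col-179. Of these, col-19, col-171 and col-179 exceeded 3 reads in a mutant library, with at most 5. With a floor of 10 reads 25 members fell in this class. col-19, known from adult cuticle, and col-2, known from dauer larvae, were near the floor: col-2 had 0.373, 0.405 and 0.346 CPM in set-2(tm1630) and 0.137, 0.0765 and 0.0555 CPM in N2 of experiment 1, and was too low to be tested.

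After a filter of at least 10 reads in at least 3 of the 6 libraries of an experiment, 113 members entered the test of set-2(tm1630) and 121 that of set-2(zr2012). Of the 153, 105 entered both and 24 neither. A gene present mainly in the group where it is high can pass such a filter, so the counts below describe those that passed, not the family. A call means an adjusted p under 0.05 over all genes tested, by edgeR's quasi-likelihood test.

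In set-2(tm1630) embryos, 48 of the 113 tested members fell and 10 rose, which is 42.5% and 8.85%. Over all 16332 genes tested, 16% fell and 14.4% rose (30.4% called in all). The median log2 fold change of the members was -1.49, against -0.21 over all genes, and it was negative for 80 members, against 55.9% of all genes. All 3 mutant libraries lay below all 3 N2 libraries for 52 members (46.02%), against 24.6% of all genes, and above them for 20 members, against 25.8% of all genes. The members that fell had a median N2 level of 21.9 CPM and the members that rose one of 0.477 CPM, so the rises lay among genes of very low level, none above 1.05 CPM in N2. Of 23 members with a mean over 1000 reads, 11 fell and none rose, where 17.5% of all such genes fell and 14.5% rose. Of 40 with a mean between 100 and 1000 reads, 29 fell and 2 rose, where 21.02% of all such genes fell and 14.4% rose. Of 50 with a mean under 100 reads, 8 fell and 8 rose, where 8.34% of all such genes fell and 14.4% rose, and their median log2 fold change was 0.29. Of the 58 calls, 6 were of members that stayed under 10 reads in all libraries of 1 group and entered the test through the other (col-7, col-17, col-62, col-93, col-159 and col-170). Their p-values give no support, and without them 43 fell and 9 rose. Other called members, such as col-168 and col-84, had some but not all libraries of 1 group under 10 reads. With at least 10 reads in every library, 76 members were tested and 41 called, all among the 58, where 4013 of all 13294 genes were called.

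The largest falls were in genes with clear N2 levels. col-160 had 0.72, 1.01 and 0.749 CPM in set-2(tm1630) and 114, 5.97 and 10.5 CPM in N2, a log2 fold change of -5.73 ± 1.19 (SE; adjusted p = 0.013). Its groups did not overlap, but N2 replicate 1 was about an order of magnitude above the other N2 libraries, and without it the log2 fold change was -3.33 (adjusted p = 0.0068). col-168 had 0.267, 0.337 and 0.403 CPM in the mutant and 34.1, 3.59 and 7.19 CPM in N2, with a log2 fold change of -5.46 ± 0.94 (SE; adjusted p = 0.0081), or -3.99 without that library. col-167, its neighbour, had 6.72, 13.96 and 6.88 CPM in the mutant and 415, 73.4 and 99.1 CPM in N2, with a log2 fold change of -4.42 ± 0.76 (SE), or -3.25 without N2 replicate 1. With 1 library left out at a time, the call was lost in 3 of 6 fits for col-160, 2 for col-168 and 1 for col-167. The adjusted p of edgeR's quasi-likelihood test then reached 0.071, 0.052 and 0.051. The mutant was the lower in every library for each of these genes, and N2 replicate 1 was the highest.

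The same held for the next of these genes. col-98 had 3.52, 6.27 and 4.58 CPM in set-2(tm1630) and 338, 24.5 and 50.3 CPM in N2 (log2 fold change -4.85 ± 0.99, SE), or -2.97 without N2 replicate 1 (adjusted p = 0.0082 by edgeR's quasi-likelihood test). Its call was lost in 3 of the 6 fits that left out 1 library (adjusted p up to 0.070 by that test). col-159 had 0.240, 0.202 and 0.202 CPM in the mutant and 9.26, 2.50 and 0.980 CPM in N2 (-4.26 ± 0.89, SE). col-170 had 0.133, 0.135 and 0.115 CPM in the mutant and 5.77, 0.969 and 0.850 CPM in N2 (-4.26 ± 0.93, SE). The last 2 had fewer than 10 reads in every mutant library and passed the filter only through N2, where they are high, and neither could be tested without N2 replicate 1. The adjusted p-values of the 3, from edgeR's quasi-likelihood test, lay between 0.013 and 0.015. col-97 was the sole gene of the 6 with the highest N2 level to pass: it fell to 94.3, 116 and 91.0 CPM in the mutant, against 483, 252 and 702 CPM in N2 (log2 fold change -2.25 ± 0.43, SE; adjusted p = 0.011). The other 5, col-165, col-74, col-121, col-107 and col-65, had log2 fold changes between -1.38 and -0.49 that did not pass. That of col-107 was -1.38, or -0.48 without N2 replicate 1.

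Of the members chosen for what is known of their stage or kind, col-12, col-7 and col-99 fell in set-2(tm1630). col-12 and col-13 are a tandem pair expressed late in each moulting cycle. col-12 had 0.560, 1.62 and 0.864 CPM in the mutant and 45.6, 4.84 and 2.81 CPM in N2 (log2 fold change -4.16 ± 1.11, SE; adjusted p = 0.027), or -1.98 without N2 replicate 1 (adjusted p = 0.037). col-13, too low to be tested, had 0.0267, 0.202 and 0.0288 CPM in the mutant and 1.15, 0.229 and 0.0555 CPM in N2. col-99 encodes a transmembrane collagen rather than a cuticle collagen, and had 19.6, 24.4 and 19.1 CPM in the mutant, against 41.2, 105.01 and 59.1 CPM in N2 (-1.71 ± 0.39, SE; adjusted p = 0.017). col-7, known from adult cuticle, had 0.213, 0.202 and 0.115 CPM in the mutant and 1.10, 0.637 and 0.684 CPM in N2 (-2.17 ± 0.55, SE; adjusted p = 0.023), but passed the filter only through N2. col-10 did not pass, with 29.02, 45.6 and 27.8 CPM in the mutant and 227, 48.3 and 67.6 CPM in N2 (log2 fold change -1.74, or -0.77 without N2 replicate 1; adjusted p = 0.054).

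The rises in set-2(tm1630) were in genes of about 1 CPM or less in N2. col-84 had 7.92, 8.297 and 7.51 CPM in the mutant and 0.321, 0.306 and 0.739 CPM in N2 (log2 fold change 4.07 ± 0.50, SE; adjusted p = 0.0035). col-96 had 4.48, 6.75 and 4.81 CPM in the mutant and 1.15, 0.612 and 0.536 CPM in N2 (2.82 ± 0.48, SE; adjusted p = 0.0079). These 2 were the named members whose call held in every fit that left out 1 library. col-9 had 3.33, 4.05 and 3.20 CPM in the mutant and 0.137, 0.765 and 0.592 CPM in N2 (2.77 ± 0.60, SE; adjusted p = 0.015). col-164 had 2.13, 1.42 and 2.50 CPM in the mutant and 0.229, 0.204 and 0.462 CPM in N2, and col-132 had 4.26, 3.98 and 4.20 CPM in the mutant and 0.504, 0.510 and 1.13 CPM in N2. col-63 had 5.65, 5.87 and 5.18 CPM in the mutant and 0.641, 0.739 and 1.77 CPM in N2. The 4 genes rose by log2 fold changes of 2.38 to 2.77, with no overlap between groups. col-17 had 14, 11 and 26 reads in the mutant and 1, 6 and 0 in N2 (adjusted p = 0.038), so its fold rests on few reads, and it entered the test only through the mutant.

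The count of calls in set-2(tm1630) depended on which library was left out. Without N2 replicate 1 it was 44, of which 36 fell and 8 rose, 43 of them shared with the 58, where all genes gave 4959 calls. Leaving out mutant replicate 1, 2 or 3 gave 8, 12 and 10 calls, where all genes gave 747, 938 and 916 calls instead of 4961, and leaving out N2 replicate 3 gave 75, where all genes gave 7857. The median log2 fold change of the members stayed between -1.74 and -0.95 in these fits.

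**Figure D2:**
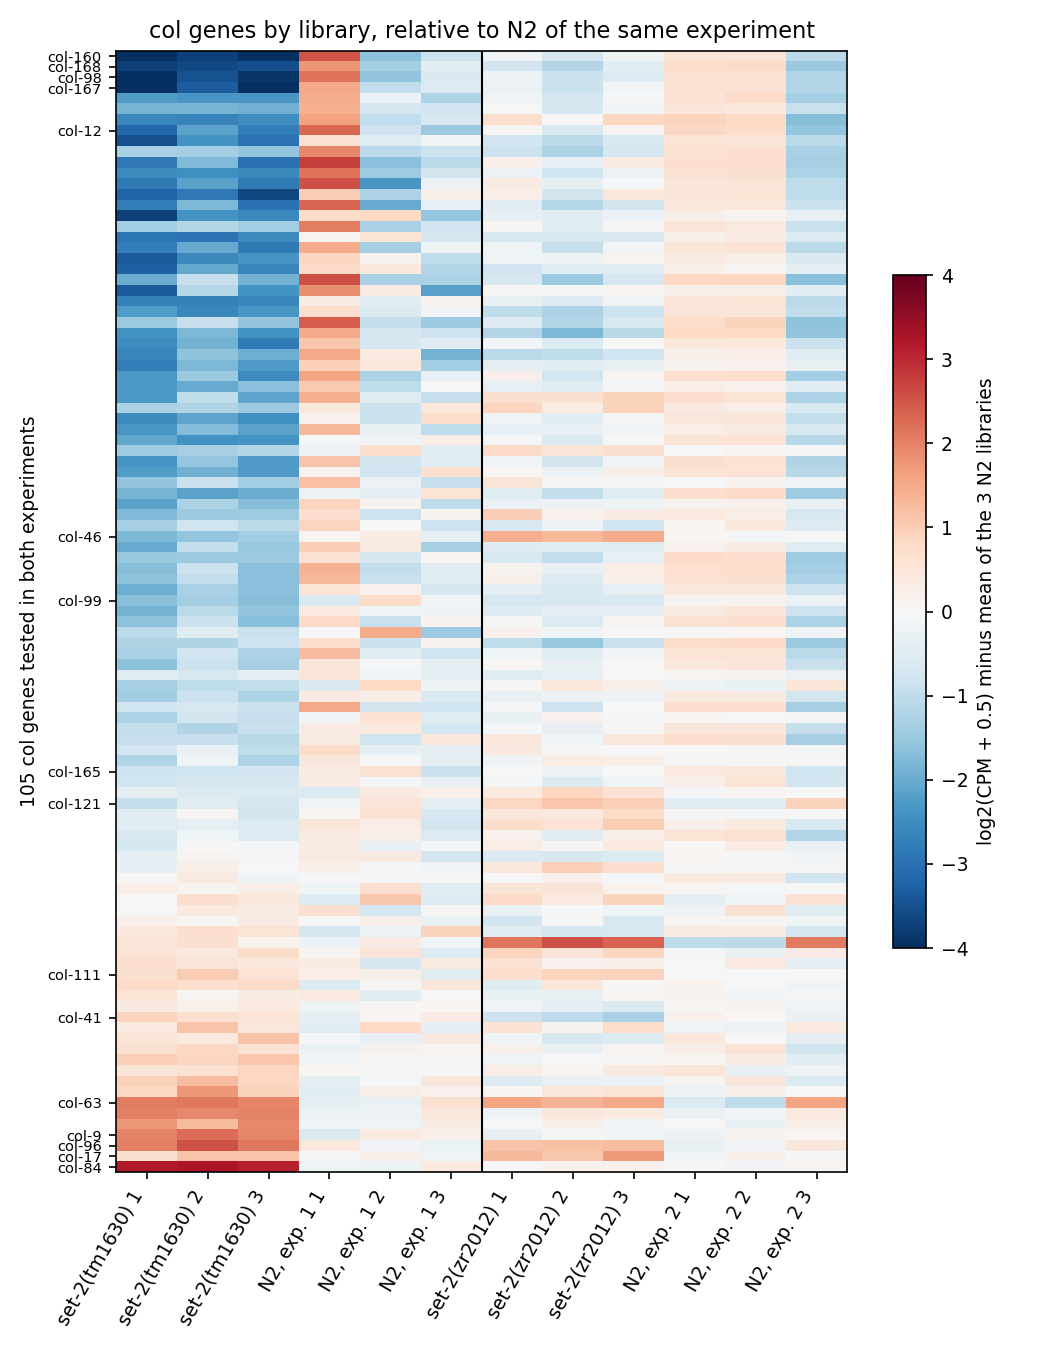
Heat map of the 105 members tested in both experiments, in rows ordered by their change in set-2(tm1630), with the 12 libraries in columns. Colour is log2(CPM + 0.5) minus the mean of the 3 N2 libraries of the same experiment, from -4 (blue) to 4 (red). The set-2(tm1630) columns are blue in most rows, N2 replicate 1 of experiment 1 is red in many of them, and N2 replicate 3 of experiment 2 is blue where its sister libraries are red.

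Far fewer members passed the test in set-2(zr2012) embryos. Of 121 tested, 6 rose and 3 fell, which is 7.44%, against 10.4% of all 16892 genes tested (5.71% rose and 4.74% fell). The median log2 fold change of the members was -0.24, against -0.08 over all genes, and it was negative for 78 members, against 55.9% of all genes. All mutant libraries lay below all N2 libraries for 7 members and above them for 16, against 18.1% and 18.9% of all genes. At an unadjusted p under 0.05 there were 25 members (14 higher and 11 lower), which is 20.7%, against 30.4% of all genes. Of the 9 calls, 4 were of members under 10 reads in all libraries of 1 group (col-17, col-41, col-49 and col-135), which entered the test only through the group where they are high. Without them 3 rose and 2 fell.

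The members that rose in set-2(zr2012) were col-46, col-111, col-135, col-17, col-96 and col-49. col-46 had 16.01, 14.7 and 16.5 CPM in the mutant and 5.95, 5.22 and 5.62 CPM in N2 (log2 fold change 1.49 ± 0.14, SE; adjusted p = 0.0066). col-111 had 80.0, 91.4 and 92.9 CPM in the mutant and 48.7, 50.1 and 48.7 CPM in N2 (0.84 ± 0.10, SE; adjusted p = 0.010). Groups did not overlap for either gene, and N2 was tight, with replicate 3 at the level of the others. The remaining rises were at low read counts. col-135 had 27, 28 and 35 reads in the mutant and 5, 3 and 9 in N2, col-17 had 24, 25 and 42 reads and 2, 5 and 4 in N2, and col-49 had 19, 16 and 15 reads and 6, 6 and 5 in N2. col-96 had 2.32, 2.41 and 2.53 CPM in the mutant and 0.538, 0.652 and 1.25 CPM in N2 (1.54 ± 0.35, SE; adjusted p = 0.041).

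The members that fell in set-2(zr2012) were col-41, col-68 and col-99. col-99 had 64.8, 66.2 and 67.9 CPM in the mutant and 110.9, 114 and 86.9 CPM in N2 (log2 fold change -0.65 ± 0.13, SE; adjusted p = 0.031). col-68 had 11.6, 12.03 and 14.2 CPM in the mutant and 29.1, 30.5 and 17.8 CPM in N2 (-1.03 ± 0.23, SE; adjusted p = 0.041). col-41, which passed the filter only through N2, had 8, 7 and 3 reads in the mutant, against 36, 25 and 32 in N2 (-2.16 ± 0.42, SE; adjusted p = 0.030). The groups did not overlap for any of the 3.

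The 6 genes with the largest falls in set-2(tm1630) stood at other levels in experiment 2. col-160 had 55.3, 37.3 and 52.7 CPM in set-2(zr2012) and 84.3, 85.7 and 28.6 CPM in N2, and col-168 had 13.1, 9.95 and 16.4 CPM in the mutant and 37.9, 39.4 and 7.82 CPM in N2. col-98 had 76.2, 48.1 and 60.9 CPM in the mutant and 132, 131 and 38.5 CPM in N2. For each of these genes the mutant libraries lay between N2 replicate 3 and the other N2 libraries, and none passed (log2 fold changes -0.45, -1.11 and -0.70). col-63 had the reverse pattern, with 5.92, 5.04 and 5.65 CPM in the mutant and 0.975, 0.565 and 5.93 CPM in N2 (log2 fold change 1.12, or 2.79 without N2 replicate 3).

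The calls in set-2(zr2012) turned on N2 replicate 3. Without it, 86 of 117 tested members were called, 66 lower and 20 higher, and 8 of the 9 calls were among them. Over all genes that fit called 10468 of 16555. The 2 N2 libraries that remain had the lowest chi-square per degree of freedom of any pair within a group (1.90 over col genes, where the other pairs had 5.58 to 2303). The cause of the larger count was not tested. Without N2 replicate 3 col-168 was at -1.56, col-98 at -1.09, col-167 at -0.95 and col-160 at -0.81 on the log2 scale. Of the genes with the highest N2 level, col-121 was then at 1.43, col-107 at -0.80, col-65 at -0.58, col-74 at -0.56, col-97 at -0.52 and col-165 at -0.48. Among the other named members, col-12 was at -0.89 and col-10 at -0.62, and col-41 could not be tested. Leaving out any of the other 5 libraries gave 0 to 2 calls, where all genes gave 29 to 154 instead of 1765.

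By the ratio of the highest to the lowest library, replicates differed more in their col genes than over all genes. Among members with a mean of at least 100 reads, the median ratio of the highest to the lowest library was 1.57 in set-2(tm1630) and 3.64 in N2 of experiment 1, where all genes gave 1.29 and 2.38. It was 1.44 in set-2(zr2012) and 3.02 in N2 of experiment 2, where all genes gave 1.14 and 1.46. In N2 of experiment 1 replicate 1 was the highest library for 46 of 64 members, and in N2 of experiment 2 replicate 3 was the highest for 4 of 71. Chi-square per degree of freedom was lower over col genes (8.85 to 32.01) than over all genes (16.7 to 104.5) for the 3 pairs of set-2(tm1630) libraries. It was also lower for N2 replicates 1 and 2 of experiment 2, and higher for the other 8 pairs. At a given ratio between libraries it grows with the number of reads, so it does not compare the spread of col genes with that of all genes.

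Both alleles shared 5 called members. col-99 and col-68 fell in both, col-96 and col-17 rose in both, and col-46 fell in set-2(tm1630) and rose in set-2(zr2012). Of these, col-17 entered both tests only through the mutant libraries. col-46 had 1.36, 1.69 and 1.96 CPM in set-2(tm1630) and 6.32, 7.52 and 4.44 CPM in N2 of experiment 1 (log2 fold change -1.87 ± 0.41, SE; adjusted p = 0.015). col-68 had 3.49, 7.56 and 5.84 CPM in set-2(tm1630) and 69.8, 31.7 and 6.21 CPM in N2, with overlapping groups, and its log2 fold change of -2.68 was -1.78 and no longer called without N2 replicate 1 (adjusted p = 0.093 by edgeR's quasi-likelihood test). Over the 105 members tested in both experiments, the log2 fold changes had a Pearson r of 0.43 and a Spearman rho of 0.44, a description across genes, which are not independent. Over the 15637 genes tested in both they were 0.095 and 0.12. Both changes were negative for 59 members, both positive for 16, and of opposite sign for 30. Over all genes both were negative for 5518.

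The change itself differed between the alleles for 34 of 129 members, tested as an interaction over all 12 libraries, which is 26.4% against 23.4% of all 17903 genes. For 30 of them the change in set-2(zr2012) was above that in set-2(tm1630), against 11.7% of all genes in that direction, and for 4 it was below, against 11.8%. The experiments had N2 libraries of their own, so allele and experiment cannot be told apart. The 4 were col-9, col-41, col-84 and col-164, of which col-41 stayed under 10 reads in every set-2(zr2012) library. The median difference was 1.18 on the log2 scale over the members and 0.17 over all genes.

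**Figure D3:**
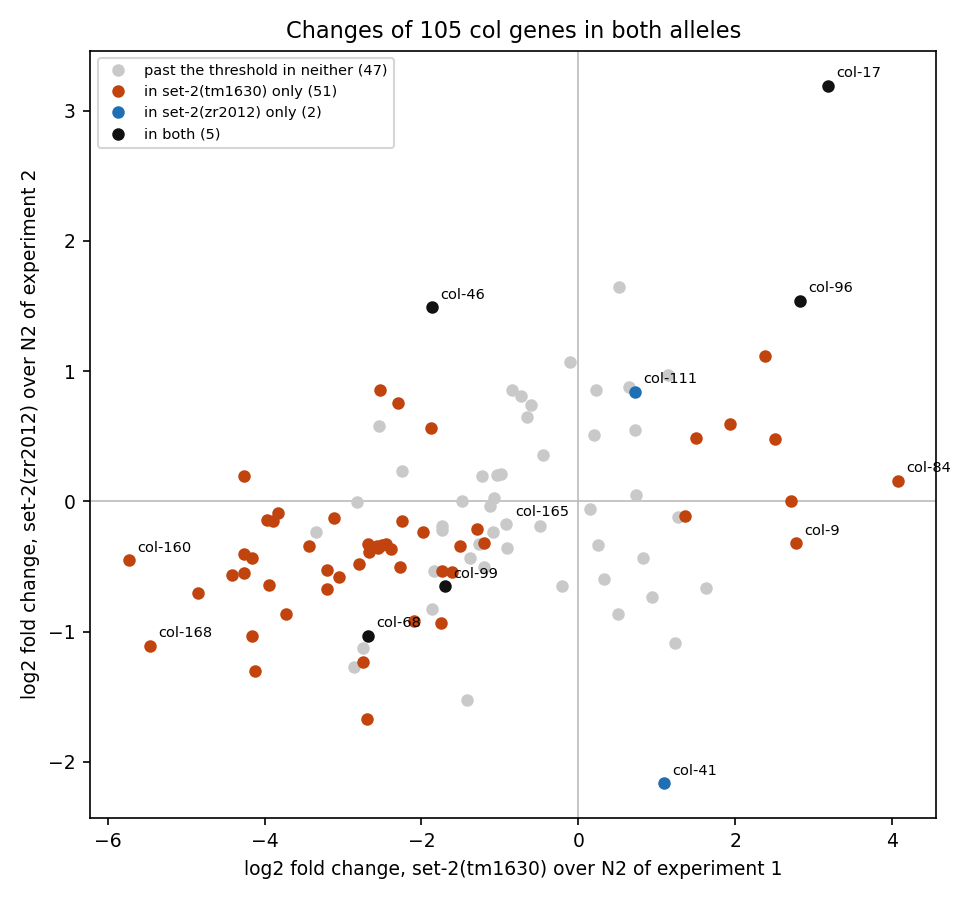
Log2 fold changes of the 105 members tested in both experiments, set-2(tm1630) over N2 of experiment 1 on the x axis and set-2(zr2012) over N2 of experiment 2 on the y axis. Colours give the calls: 51 members in set-2(tm1630) only, 2 in set-2(zr2012) only, 5 in both and 47 in neither. Most points lie left of 0 within a narrow band in y, and col-46 lies alone among the black points in the upper left.

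**Figure D4:**
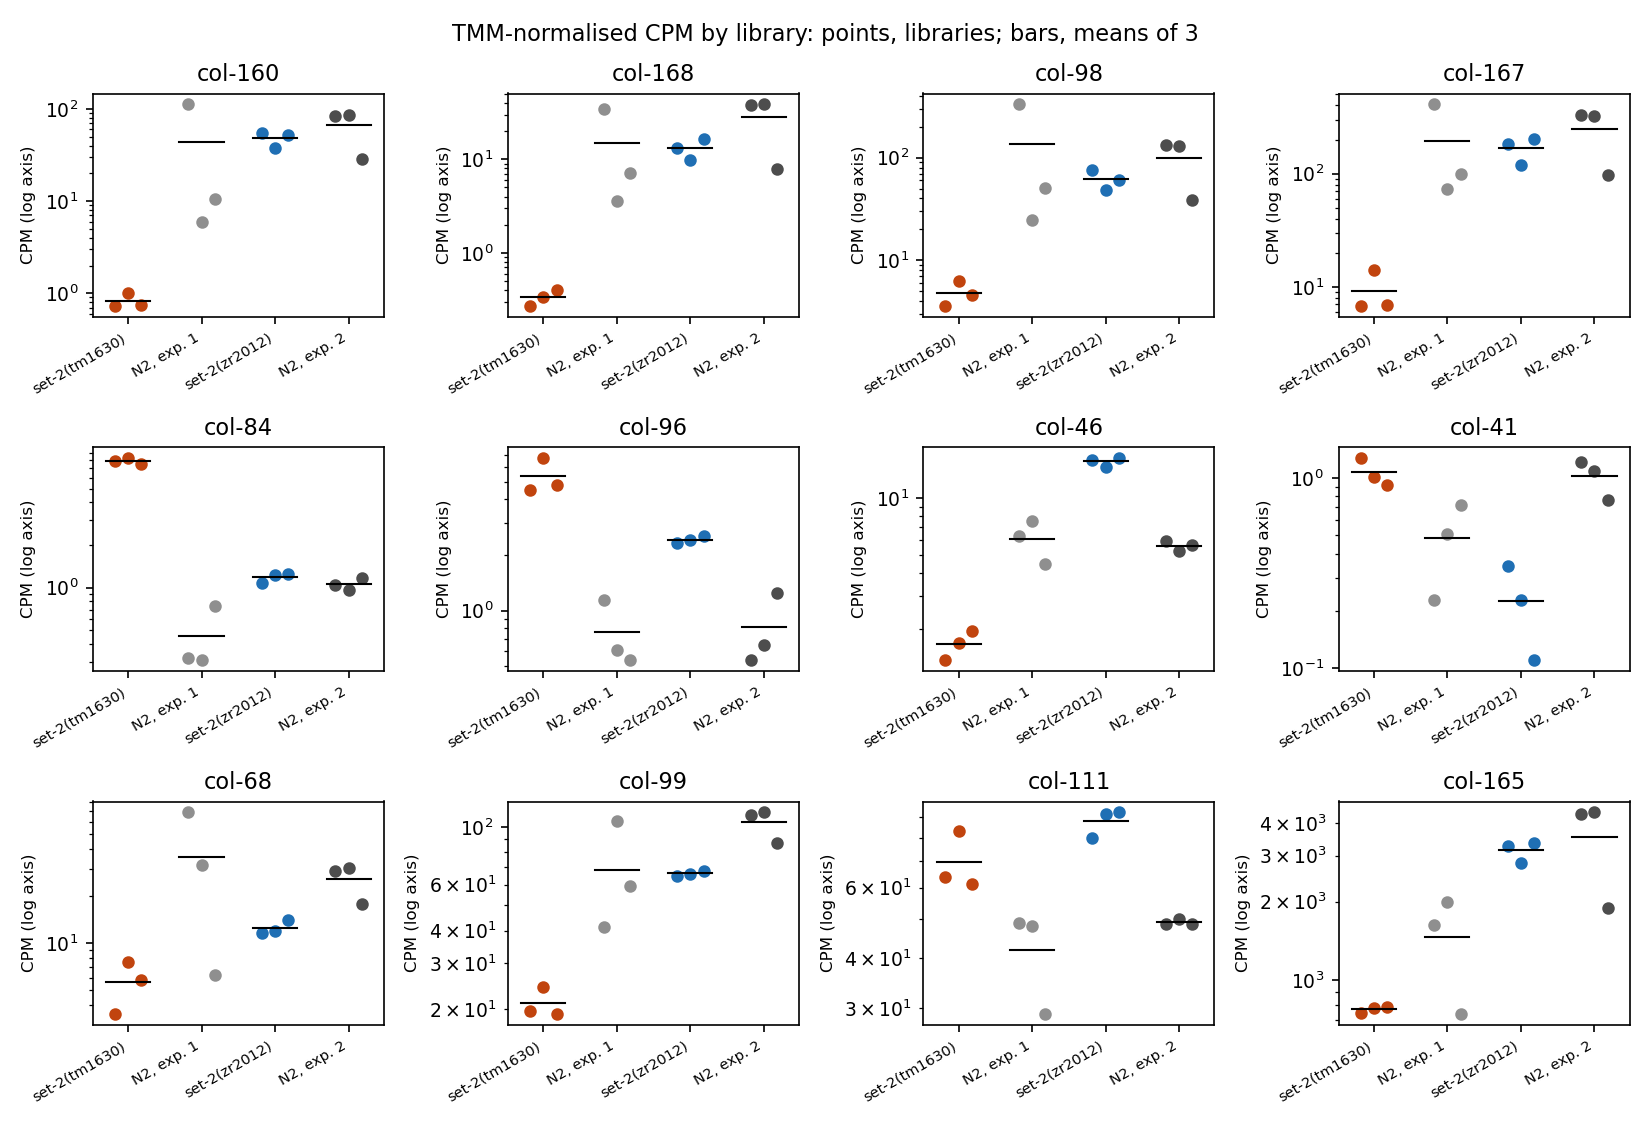
CPM in each library on log axes for 12 members, with a point for each library and a bar for the mean of 3. col-160, col-168, col-98 and col-167 are far lower in set-2(tm1630) than in any other group, col-84 and col-96 are highest there, and col-46 lies below N2 in set-2(tm1630) and above N2 in set-2(zr2012).

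Several col genes lie next to each other. Order was read from a RefSeq gene table of another assembly than the files use, which names 152 of the 153 members, so it serves for neighbourhood only. In it 45 members formed 19 runs of adjacent col genes. Of 14 adjacent pairs with both members tested in set-2(tm1630), 12 had the same sign and 8 were both called lower, where 70.8% of all tested members had a negative change. In set-2(zr2012), 14 of 18 such pairs had the same sign, where 64.5% of all tested members had a negative change, and none had both members called lower. These percentages are of single members, so they are no baseline for pairs of the same sign, and pairs within a run share members. In set-2(tm1630), 19 of 29 tested members in runs fell, and 29 of 84 other tested members, against 16% of all genes. Of the lower members in runs, col-7, col-62, col-93, col-159 and col-170 entered the test only through N2. Their calls, and the pairs counted as both lower that hold them, give no support. Members were named below for their place in a run after their values were seen.

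The longest run, col-167 to col-171, had log2 fold changes of -4.42, -5.46, -3.20 and -4.26 in set-2(tm1630) for its 4 tested members. All were called, though col-170 entered the test only through N2. The same 4 had -0.57, -1.11, -0.53 and -0.40 in set-2(zr2012), none called. In the pair col-46 and col-47 both fell in set-2(tm1630), at -1.87 and -2.30, and had 1.49 and 0.75 in set-2(zr2012), where col-47 did not pass (adjusted p = 0.059 by edgeR's quasi-likelihood test). The pair col-9 and col-44 went apart in set-2(tm1630), where col-9 rose by 2.77 and col-44 fell by 1.88 on the log2 scale. Adjacent members can share reads where their sequences are alike, which was not tested.

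**Figure D5:**
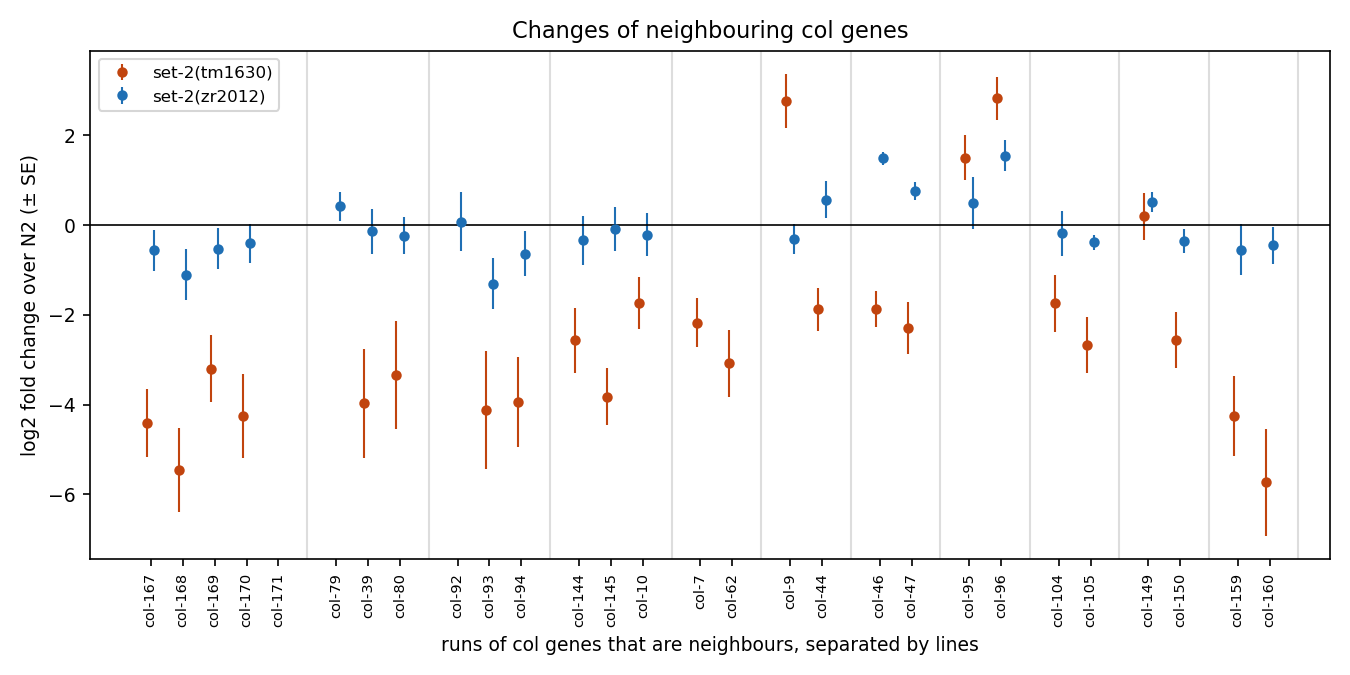
Log2 fold change over N2 with its SE for neighbouring col genes, in runs with at least 2 members tested in set-2(tm1630), separated by vertical lines. Members of a run lie on the same side of 0 in set-2(tm1630) in all runs shown but col-9 with col-44 and col-149 with col-150, and set-2(zr2012) points lie nearer 0 for all members shown with both values but col-149.

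Other genes of the cuticle and its regulation also changed in set-2(tm1630), to differing degrees. Of 36 tested cuticulins and related zona pellucida proteins, which form other layers of the cuticle and the matrix before it, 20 fell and 1 rose, the smallest p being those of cutl-23 (log2 fold change -2.67), cutl-5 (-2.67) and cutl-29 (-1.82). Of 15 tested genes that process collagen, 4 fell and 1 rose. doxa-1, a maturation factor of the dual oxidase that cross-links collagen, fell by 2.65 and bli-3, that oxidase, by 1.56 on the log2 scale, while cyn-9, a cyclophilin that folds collagen, rose by 2.53. Of 16 tested collagens that set body shape, sqt-1 and rol-8 rose, both below 1 CPM in every group mean of this experiment, and dpy-13 fell by 1.24. The 16 had a median log2 fold change of -1.05. At an unadjusted p under 0.05, 4 of them were lower and 2 higher, where 44.8% of all genes passed. That list summed to 5935 to 10227 CPM in set-2(tm1630) and 9848 to 26135 CPM in N2, with overlap. Of 10 tested regulators of epidermal transcription, 5 fell, with bed-3 at -2.09, grh-1, the Grainyhead factor, at -2.41 and lin-14 at -2.67. These lists were chosen with earlier results of these data known, and are described by counts beside the 16% of all genes that fell and the 14.4% that rose.

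Markers of other tissues moved too. The 7 tested epidermis markers included 4 that fell and none that rose, with a list sum of 701 to 838 CPM in set-2(tm1630) against 1223 to 3115 CPM in N2, and 4 of the 13 on that list were at 0 in all 6 libraries, elt-1, elt-3 and ajm-1 among them. Of 7 tested muscle markers 5 fell (sum 1960 to 2150 CPM against 5080 to 6328 CPM), of 10 tested neuron markers 5 fell (666 to 720 CPM against 1052 to 1600 CPM), and of 8 tested intestine markers 3 fell (1445 to 1750 CPM against 1872 to 4310 CPM). Of 27 tested early embryo genes, 21 rose and none fell, with zif-1 (3.95 on the log2 scale), puf-11 (3.48) and oma-2 (3.66) having the smallest p. Markers of adults, from which eggs were released, summed to 2.64 to 3.77 CPM in set-2(tm1630) and 5.04 to 10.5 CPM in N2, and of 3 tested 1 fell. The part of these shifts in the changes of col genes was not tested.

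In set-2(zr2012) few genes of these lists passed edgeR's test, where 5.71% of all genes rose and 4.74% fell. At an unadjusted p under 0.05 there were 4 of 17 body shape collagens, 5 of 37 cuticulins and 4 of 10 regulators. There were also 4 of 7 epidermis, 3 of 10 neuron and 3 of 8 intestine markers, against 30.4% of all genes. Of 17 tested body shape collagens lon-3 fell, at -0.82, and of 37 tested cuticulins cutl-10 fell, at -0.53. None of 14 tested processing genes passed, with 1 at an unadjusted p under 0.05. Of 10 regulators, lin-26, which specifies epidermal fate, fell by 1.42 on the log2 scale, with 78.5 ± 5.5 CPM in the mutant and 210 ± 27 CPM in N2 (SD, n = 3 each), and grh-1 rose by 0.61. None of 28 tested early embryo genes and none of 7 muscle markers passed, with 1 and 2 at an unadjusted p under 0.05. Of the epidermis, neuron and intestine markers vab-19 (0.45), unc-13 (0.64) and vha-6 (0.78) rose, lin-26 being on the epidermis list too. Adult markers summed to 18.7 to 24.5 CPM in set-2(zr2012) and 10.5 to 14.6 CPM in N2, and none of 3 tested passed, with 2 at an unadjusted p under 0.05.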

How the data were processed

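Raw gene counts from 12 libraries were used as deposited. The authors trimmed reads with Trimmomatic (0.36.0), mapped them to the ce10 genome with 2 mismatches allowed and counted with HTSeq (0.9.1), as their processing notes and methods list. The aligner and the strand setting are not given in the sources used here. Groups and replicate numbers came from the labels, and where the title and the description of 1 library gave different numbers the title was used.

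Counts were tested in R (4.3.3) with edgeR (4.0.16) by quasi-likelihood, with TMM normalisation, at least 10 reads in at least 3 of 6 libraries, Benjamini-Hochberg adjustment over all genes tested and a threshold of 0.05, separately per experiment, and with an interaction over all 12 libraries. DESeq2 (1.42.0) was an alternative. The fits were tested on simulated data. Levels are TMM-normalised CPM. Named members were the 6 with the largest change per allele and direction with non-overlapping groups and a mean of at least 10 reads, the 6 with the highest N2 CPM, those called in both alleles and 8 of known stage or kind. Of each gene list the 3 members with the smallest p could be named. The members and lists were chosen with earlier results of these data known. Protein pairs by likeness, lengths and sequences were not used here. Replicates are separate preparations, so SD and SE include variation between them, and the bound given for a count of 0 covers counting error only.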

Additional observations from a re-analysis of the deposited data

Results flagged for a closer look

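Of all 17903 genes, 23.4% had a change that differed between the alleles, by an interaction test in edgeR with an adjusted p under 0.05. Among the members 34 of 129 did, which is 26.4%. As the change in set-2(zr2012) minus that in set-2(tm1630) on the log2 scale, the named ones were 5.25 for col-160, 4.31 for col-168, 4.11 for col-98, 3.82 for col-167, 3.81 for col-170, 3.66 for col-159, 3.34 for col-46 and 2.08 for col-97. The difference ran the other way for col-84 at -3.91, col-41 at -3.26, col-9 at -3.09 and col-164 at -2.70. Without N2 replicate 1 of experiment 1, the set-2(tm1630) change was -3.33 for col-160, -3.99 for col-168, -2.97 for col-98 and -3.25 for col-167. With all libraries these were -5.73, -5.46, -4.85 and -4.42. In set-2(tm1630), col-159 and col-170 stayed under 10 reads in every library, as did col-41 in set-2(zr2012). The p-values of col-159, col-170 and col-41 give no support. col-46 and col-41 had non-overlapping groups in both experiments, in opposite directions, though col-41 did not pass in set-2(tm1630) alone. Allele, experiment and the N2 libraries of each cannot be told apart here.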

How the results depend on the processing

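Leaving out 1 library at a time, the members called in set-2(tm1630) ranged from 8 to 75 (58 with all libraries). The lower ones ranged from 6 to 61 and the higher ones from 2 to 14, where calls over all genes ranged from 747 to 7857 (4961). In set-2(zr2012) the members called ranged from 0 to 86 (9), the lower ones from 0 to 66 and the higher ones from 0 to 20. Calls over all genes ranged there from 29 to 10468 (1765). Members whose change differed between the alleles ranged from 15 to 59 (34), 11 to 50 with the set-2(zr2012) change above and 4 to 9 with it below. The share over all genes is not given for those fits. The median log2 fold change of the members ranged from -1.74 to -0.95 in set-2(tm1630) and from -0.56 to -0.026 in set-2(zr2012). Some uncalled changes in set-2(zr2012) turned sign without 1 N2 library of experiment 2, and ranged from -0.62 to 0.034 for col-10 (0.028 without replicate 1), from -0.58 to 0.059 for col-65 (0.026), from -0.52 to 0.081 for col-97 (0.071), from -0.48 to 0.012 for col-165 and from -0.23 to 0.18 for col-164. For col-164 the sign also turned with no count filter (-0.022) and with all 12 libraries in 1 fit (-0.0011). The cause was not tested.

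With at least 10 reads in every library 41 of 76 tested members were called in set-2(tm1630), 4 of them higher. Over all genes that fit called 4013 of 13294. The median of the members there was -1.76, and 21 members differed between the alleles, 1 with the change below. DESeq2's Wald test called 15 of 121 members in set-2(zr2012), 6 of them lower, where it called 3252 of all 16892 genes. In the interaction it called 8 members with the change below. A single fit of all 12 libraries called 2 members in set-2(zr2012), 2 higher and 0 lower, where it called 248 of all 17903 genes. Without members under 10 reads in all libraries of 1 group, a choice made after seeing the data, 52 calls were left in set-2(tm1630) and 5 in set-2(zr2012). A floor of 10 reads put 25 members, not 16, in the lowest class. With DESeq2's size factors the median of all genes was -0.14 instead of -0.21 in set-2(tm1630) and -0.06 instead of -0.08 in set-2(zr2012).

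Deviations of same-numbered libraries from their group means correlated between -0.38 and -0.08 in experiment 1 and between -0.38 and 0.15 in experiment 2. With 3 libraries per group these deviations are not independent, so the check cannot show whether the preparations were paired. Libraries of different number correlated more in experiment 1: mutant 1 with N2 3 (0.49), 2 with 1 (0.43) and 3 with 2 (0.38). In experiment 2 the highest was mutant 2 with N2 3 (0.40). A pairing under other numbers was not tested. With the replicate block, 0 members were called in set-2(zr2012) (0 higher and 0 lower), where all genes gave 40 calls of 16892 instead of 1765. Between the alleles 15 members differed with the block, 12 with the change above, and the share over all genes is not given for that fit. In set-2(tm1630) the block called 45 members, where all genes gave 3470 calls of 16332 instead of 4961.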
